A study of Mus musculus with 8 samples.

Results

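Sca1 is the surface protein encoded by Ly6a. The cells described here are the Ly6a-positive cells of 1 library, the ascending aorta of Apoe-/- mice after 4 months of a high fat diet (HFD), labelled Apoe 4M. A cell was included when it held at least 1 Ly6a UMI (unique molecular identifier, a counted molecule) and when Col2a1, the cartilage collagen II gene, took under 0.1% of its UMIs. Of the 1235 cells of that library 131 met this rule, and the series holds 13056 cells in all. They were compared with the 1053 cells of the same library that had 0 Ly6a UMIs under the same Col2a1 bound, called Ly6a-zero cells. The remaining 51 cells of the library were at or over the Col2a1 bound. The cells were thus chosen by their measured Ly6a and Col2a1 UMIs, whose levels are given as a description only.

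The study sorted GFP-positive cells, taken as smooth muscle cells, from digested mouse ascending aorta and sequenced them on the 10x Genomics Chromium droplet system. Its 8 libraries came from Apoe-/- mice (Apoe) and from Apoe-deficient mice that lack Tgfbr2 in smooth muscle (KO; genotype TGFBetaRiSMC-Apoe). Each genotype was sampled on the diet labelled ND and after 1 month (1M), 2 months (2M) and 4 months (4M) of HFD. All 8 libraries therefore lack Apoe, and the comparison of Ly6a-positive with Ly6a-zero cells was made within a library. Each genotype and diet had 1 library. The number of mice per library, their age, the promoter behind the knockout and the source of the GFP are not given in the sources used here.

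Sca1 is a small protein held on the cell surface by a lipid anchor. It is best known as a marker of blood stem cells, and it is also carried by fibroblasts and progenitor-like cells of the vessel wall. Medial smooth muscle normally expresses contractile genes such as Acta2 and Myh11. In atherosclerosis, cells of smooth muscle origin can lower these genes and express matrix genes such as Lum and Dcn, a change called phenotypic modulation. Decorin (Dcn) and lumican (Lum) are small leucine-rich proteoglycans that bind collagen fibrils, and Vcam1 is an adhesion molecule that binds leukocytes.

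In the genome build GRCm38, Ly6a lies on chromosome 15 at 74994877 to 74998031 on the minus strand, between 2 other listed members of its family. Ly6e lies at 74955051 to 74959905 (plus strand), 35.0 kb away, and Ly6c1 at 75044018 to 75048830 (minus strand), 46.0 kb away. Dcn (97479609 to 97518143) and Lum (97565128 to 97572703) are neighbours on chromosome 10, both on the plus strand and 47.0 kb apart. Vcam1 lies on chromosome 3 at 116109949 to 116129688 on the minus strand.

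The Apoe 4M library held 9407669 UMIs, the fewest of the 8 libraries, which ranged up to 19720109. The 131 Ly6a-positive cells had a median of 7005 UMIs and the Ly6a-zero cells a median of 6812. Pairs of libraries shared 0 to 9 cell barcodes, and 5 of the 131 Ly6a-positive barcodes also occurred in another library. Cells with UMIs of 3 or more markers of 1 other cell type (endothelial, macrophage, lymphocyte, Schwann or mesothelial) numbered 62 in KO 1M, of which 8 were Ly6a-positive, and 56 in KO 4M. In Apoe 4M fewer than 3 markers of each of these types were listed, so such cells could not be counted there.

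Ly6a-positive cells made up 10.6% of Apoe 4M (exact binomial 95% interval 8.94% to 12.5%). With every cell thinned to 4000 UMIs the share was 9.29%. In the other Apoe libraries (ND, 1M and 2M) and in KO ND, Ly6a was listed at 0, which the tables do for any gene seen in under about 5% of a library's cells, so no level can be given there. By the same rule 66 KO 1M cells (5.07%), 259 KO 2M cells (11.5%) and 49 KO 4M cells (3.11%) were Ly6a-positive. In KO 4M the rule could reach few cells, because 1402 of its 1577 cells were at or over the Col2a1 bound. Of those 1402 cells 11.7% held a Ly6a UMI, compared with 5 of the 51 cells (9.80%) over the bound in Apoe 4M. All these intervals cover counting error only.

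Ly6a levels varied widely among the 131 cells. A single Ly6a UMI was found in 35 cells, 2 UMIs in 25, 3 to 4 in 30, 5 to 9 in 17 and 10 or more in 24, with a maximum of 45. At the Col2a1 edge of the rule, the included cells with the highest Col2a1 share were at 0.0769% and 0.0768% of UMIs, and the nearest Ly6a-positive cells left out were at 0.202% and 0.437%. Free RNA in droplets can put a UMI into a cell that does not express the gene. Of the cells under the Col2a1 bound in which Dcn and Lum together took at most 0.5% of UMIs, 2.89% held a Ly6a UMI (29 of 1005 cells). Of these 29 cells 13 held a single Ly6a UMI and 16 held 2 or more, and the part of free RNA was not tested. Among the cells above that Dcn and Lum level the share was 56.98% (102 of 179 cells). The median depth was 8134 UMIs in those 29 cells and 6935 UMIs in those 102. The 0.5% level was chosen after the values were seen.

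The 3 other marker genes of the label were all high in Ly6a-positive cells. Dcn stood at 11010.5 CPM (UMIs per 1000000 UMIs, pooled over the cells; exact Poisson 95% interval 10814 to 11210) against 739 CPM in Ly6a-zero cells. Lum stood at 6221 CPM (6073 to 6371) against 579 CPM, and Vcam1 at 1637 CPM (1561 to 1715) against 352 CPM. At least 1 UMI of Dcn was found in 92.4% of Ly6a-positive and 45.6% of Ly6a-zero cells, and of Vcam1 in 91.6% and 35.5%. After thinning to 4000 UMIs the Vcam1 shares were 86.6% and 28.3%. The cells and their label were chosen with earlier results of these data known, so these levels describe the label and do not test it. Detection was counted gene by gene, not for all the markers in the same cell. Differences below are of log2(CPM + 1), Ly6a-positive minus Ly6a-zero, with the Ly6a-zero cells weighted to the depths of the Ly6a-positive cells. On that scale the differences were 4.02 for Dcn, 3.31 for Lum and 1.65 for Vcam1. For Vcam1 the difference was 2.36 in thinned cells. With 1 library there is no replicate error for these differences, so none was tested in Apoe 4M.

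Contractile genes differed the other way. All 20 measured genes of a contractile list were at least 0.5 lower in Ly6a-positive cells, with a median difference of -1.79, where 25.5% of the 9459 genes measured were at least 0.5 lower and 9.67% at least 0.5 higher (35.2% in either direction). The median over all genes was -0.15, and when differences were centred on it the counts of all genes became 1414 higher and 1714 lower, compared with 915 and 2414 before. Acta2, smooth muscle actin, was at 3812 CPM against 14170 CPM (difference -1.78). Myl9, a myosin light chain, was at 1485 against 6221 CPM (difference -1.95). Tpm2, a tropomyosin, was at 937 against 3509 CPM (difference -1.82). Acta2 was still detected in 99.2% of the Ly6a-positive cells.

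**Figure D1:**
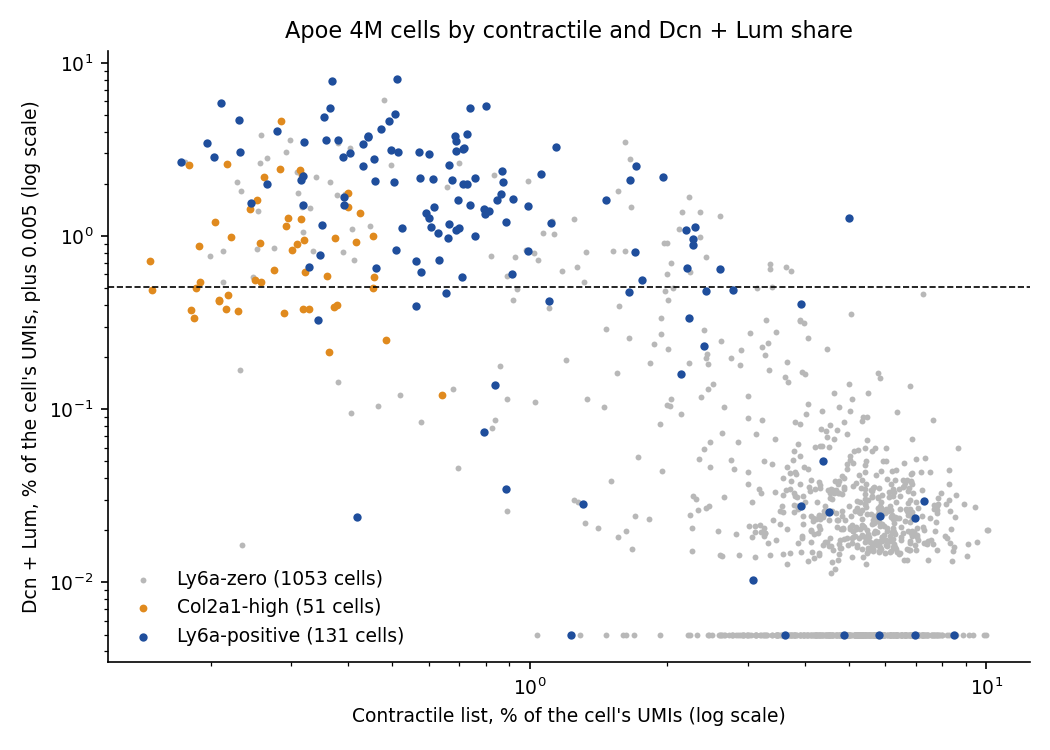
Each point is 1 cell of Apoe 4M: the x axis is the share of its UMIs from the contractile list and the y axis the share from Dcn and Lum plus 0.005, both in percent on log scales, with a dashed line at the 0.5% Dcn and Lum level. Most of the 131 Ly6a-positive cells (blue) lie at the upper left, and 14 of them lie at 3% or more contractile UMIs, among most of the 1053 Ly6a-zero cells (grey); the 51 Col2a1-high cells (orange) lie at the far left.

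Cell by cell, the contractile list took a median of 0.695% of UMIs in Ly6a-positive cells and 4.99% in Ly6a-zero cells. Dcn and Lum together took a median of 1.48% and 0.0132%. The Ly6a-positive cells were not uniform: 93 had under 1% contractile UMIs, 24 had 1% to 3% and 14 had 3% or more, and in this last range lay 863 of the 1053 Ly6a-zero cells. Of the Ly6a-positive cells 77.9% were above the 0.5% Dcn and Lum level. The other 29 Ly6a-positive cells had a median contractile share of 2.43%: 7 had under 1%, 9 had 1% to 3% and 13 had 3% or more. Of the 976 Ly6a-zero cells at or under that level 858 had 3% or more.

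The highest differences outside Ly6a itself included surface proteins and extracellular matrix genes. Ly6c1 was at 306 CPM (274 to 341) in Ly6a-positive cells and 5.0 CPM in Ly6a-zero cells (difference 5.71). Its reads are uncertain, since 15.0% of the 50-base windows of the annotated Ly6a transcripts occur unchanged in Ly6c1. Ly6e, which shares no such window with Ly6a, was at 178 CPM (154 to 205) against 12.9 CPM (difference 3.67). Of the neighbours of Ly6a on chromosome 15, Ly6e thus differed without shared windows, and for Ly6c1 the part of shared reads was not tested.

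Clec3b, which encodes tetranectin and is common in fibroblasts, was at 127 against 3.42 CPM (difference 4.86). Gda, guanine deaminase, was at 75.8 against 3.81 CPM (difference 3.61). Prg4, which encodes the joint lubricant lubricin, was at 123 against 10.4 CPM (difference 3.40), Anxa8, an annexin, at 168 against 12.4 CPM (difference 3.11) and Efemp1, a fibulin of the matrix, at 87.8 against 10.5 CPM (difference 2.96). Cxcl1, a neutrophil-attracting chemokine, was at 625 against 108 CPM (difference 2.75). Ildr2 and Bok, a member of the Bcl2 family, completed the 10 highest apart from Dcn and Lum, with differences of 3.67 and 3.05. For genes this low in Ly6a-zero cells the size depends on the pseudocount: with 10 CPM added in place of 1, the difference was 4.41 for Ly6c1 and 3.35 for Clec3b.

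At the low end Sost, which encodes the Wnt inhibitor sclerostin, had the highest level: 211 CPM (184 to 240) in Ly6a-positive against 1345 CPM in Ly6a-zero cells (difference -2.59). Among cells with 2 or more Ly6a UMIs the difference was -3.38. Rgs5, a regulator of G protein signalling found in mural cells, was at 35.1 against 227 CPM (difference -2.57). Des, the muscle intermediate filament desmin, was at 11.1 against 104 CPM (difference -3.03). Slc22a3, an organic cation transporter, was at 10.2 against 63.4 CPM (difference -2.38). Pcp4l1, Optc, Igfbp2, Tes, Ptprz1 and the RNA gene E030013I19Rik ranged from -2.95 for Pcp4l1 to -2.33 for Ptprz1. Ppp2r3a depended on the depth matching, at -3.14 with it and -1.87 without.

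Matrix genes differed by class. Between all Ly6a-positive and all Ly6a-zero cells, 9.67% of all genes were at least 0.5 higher and 25.5% at least 0.5 lower. These shares belong beside each list count of that comparison. Of 12 genes for fibrillar and other collagens 11 were at least 0.5 higher and 0 at least 0.5 lower, with a median difference of 1.10. Col1a2 was at 2315 against 1138 CPM (difference 0.87) and Col6a1 at 448 against 164 CPM (difference 1.43). Of 10 small leucine-rich proteoglycans 5 were at least 0.5 higher and 2 lower. Biglycan (Bgn), abundant in both groups at 7933 and 6297 CPM, differed by 0.25. Fibronectin (Fn1) was at 4358 against 1032 CPM (difference 1.78), and matrix Gla protein (Mgp), an inhibitor of calcification, at 21848 against 10916 CPM (difference 0.83).

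Elastic fibre and basement membrane genes did not share the direction of the collagens. Of 12 elastic fibre genes 1 was at least 0.5 higher and 2 were lower, with a median of -0.02, so neither count stood above the share over all genes. Mfap4, a microfibril-associated protein, was at 431 against 1592 CPM (difference -1.86), and elastin (Eln) at 1187 against 1924 CPM (difference -0.87). Of 11 basement membrane genes 1 was higher and 5 were lower, among them Col18a1 at 374 against 832 CPM (difference -1.18). Of 12 matrix proteases and inhibitors 7 were higher and 0 lower, with Timp2, an inhibitor of metalloproteinases, at 1597 against 606 CPM (difference 1.30).

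Immune-type genes were mixed. Of 11 genes of the NF-kB and inflammatory list, which includes the marker Vcam1, 8 were at least 0.5 higher and 0 lower, with a median of 1.29. Of 7 measured complement genes 6 were higher and 1 lower; C3, the central complement protein, was at 363 against 56.1 CPM (difference 2.35, and 2.97 in thinned cells). The interferon response list was split, with 7 of 20 higher and 4 lower and a median of 0.18; Ly6e is on that list and had its highest difference. Ifitm3, an antiviral membrane protein, was at 1063 against 527 CPM (difference 0.92). All 9 measured genes of MHC class I antigen presentation had positive differences, 4 of them at least 0.5, with H2-D1 at 530 against 361 CPM (difference 0.39).

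Among other surface proteins used to mark progenitor-like cells, Cd34 was at 108 against 20.2 CPM (difference 1.93, and 2.54 in thinned cells) and the hyaluronan receptor Cd44 at 254 against 71.7 CPM (difference 1.47). Integrin beta 1 (Itgb1) went the other way, at 476 against 897 CPM (difference -0.87). Of the 9 measured genes of that list other than Ly6a, 5 were at least 0.5 higher and 2 lower. Of 15 TGF-beta receptors, ligands and related genes 1 was higher, Ltbp2 at 310 against 89.4 CPM (difference 1.31), and 1 was lower, Ltbp1 at 981 against 1524 CPM (difference -0.61). Both encode latent TGF-beta binding proteins. The TGF-beta-responsive list had 5 of 19 higher and 5 lower, the latter near the 25.5% of all genes. Iron and metal genes had 6 of 7 higher, among them Mt2, a metallothionein, at 834 against 339 CPM (difference 1.18). Cholesterol synthesis genes had 1 of 11 higher and 7 lower at low levels, with a median of -0.72, and the list's summed level was 200 against 262 CPM.

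Among regulators of smooth muscle identity 4 of 14 were at least 0.5 higher and 6 lower. Klf4, a transcription factor linked to phenotypic modulation, was at 1015 against 621 CPM (difference 0.73), and Sox9, the cartilage regulator, at 327 against 89.8 CPM (difference 1.70). Hes1, a Notch target, was at 844 against 1347 CPM (difference -0.58). Immediate early and stress genes, which can mark handling of tissue, had 3 of 21 higher and 7 lower, not far from the 9.67% and 25.5% over all genes. The mitochondrial genome took 2.13% of UMIs in Ly6a-positive and 2.92% in Ly6a-zero cells, and its 7 measured genes had 0 past 0.5 in either direction.

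**Figure D2:**
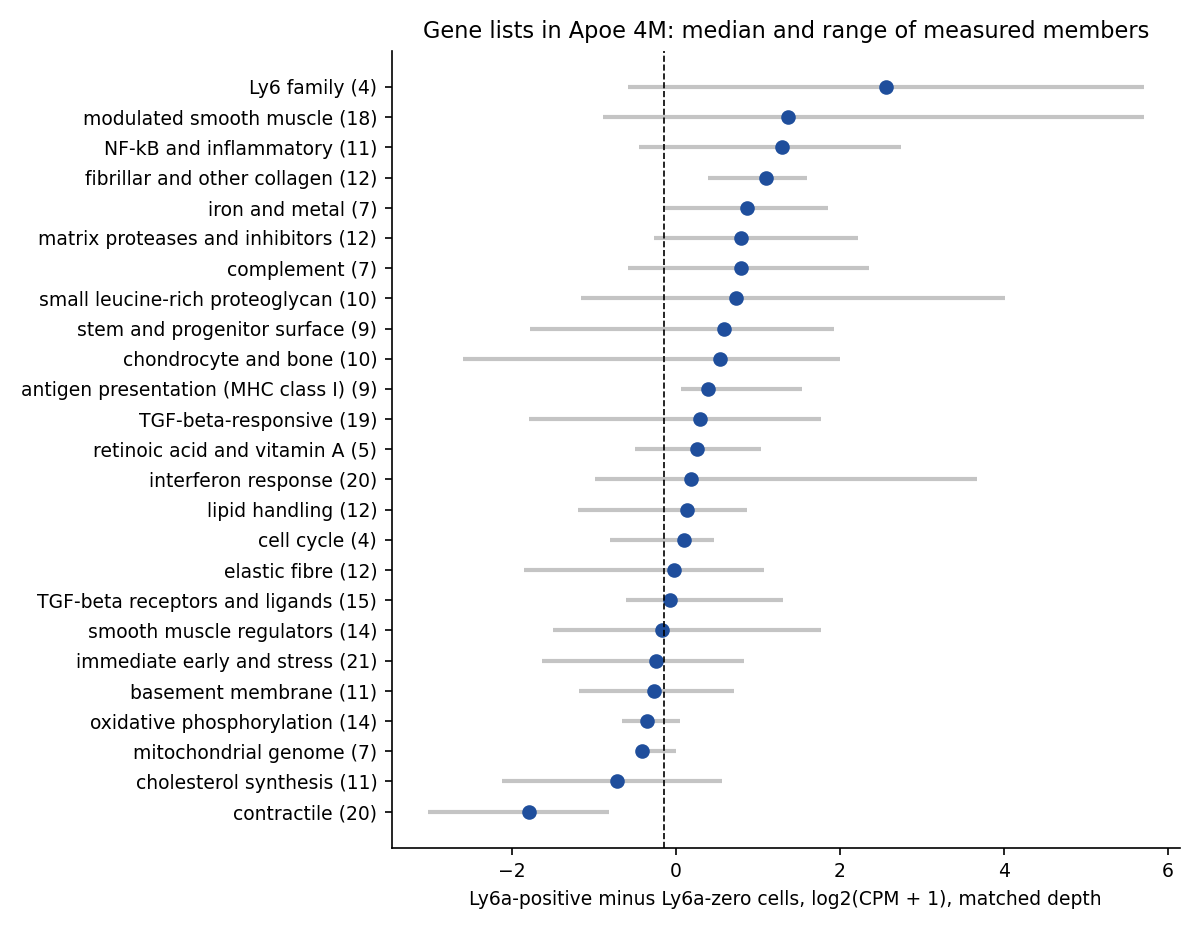
For each gene list (number of measured genes in parentheses) the dot is the median and the line the range of its members' differences, Ly6a-positive minus Ly6a-zero cells of Apoe 4M, in log2(CPM + 1) at matched depth, and the dashed line is the median of all genes at -0.15. The contractile list lies wholly below 0 with a median of -1.79, and the collagen list wholly above 0 with a median of 1.10.

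Markers of other cell types were examined beside these groups. Of 14 fibroblast markers 10 were listed, and 9 of these were at least 0.5 higher and 0 lower; their summed level was 22997 CPM in Ly6a-positive and 3397 CPM in Ly6a-zero cells, and this sum includes Dcn, Lum and Gsn. Dpt, Pi16, Dpep1 and Serpinf1, also fibroblast markers, were listed at 0. Here and below, a marker listed at 0 was seen in under about 5% of all 1235 cells. It can still be present in some of the 131 Ly6a-positive cells, so its absence from them is not shown. Of 10 endothelial markers the table listed Pecam1 and Flt1, summing to 137 and 107 CPM, with Cdh5, Vwf and Kdr at 0. Of 12 macrophage markers it listed Lgals3, at 929 against 197 CPM, with Cd68, Csf1r and Lyz2 at 0, and modulated smooth muscle cells also express Lgals3. No lymphocyte or mesothelial marker was listed. Of 6 pericyte markers 0 were at least 0.5 higher and 3 lower. Both measured bone markers, Spp1 and Ibsp, were at least 0.5 higher, and the 3 listed bone markers summed to 1822 against 434 CPM (cells with high Col2a1 left out by the rule). The listed chondrocyte markers summed to 1421 against 516 CPM, with 2 of 6 higher and 2 lower. Of the Schwann and neural markers the table listed S100b, at 37.9 against 5.65 CPM (difference 2.29), with Sox10 at 0. The part of fibroblasts and of cartilage- or bone-type cells among the sorted cells in these differences was not tested.

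The other libraries with Ly6a-positive cells gave a test of the contrast defined by the same rule. Apoe 4M, where the cells were chosen, was kept out of it. The fit used the other libraries with at least 50 cells in both groups, KO 1M and KO 2M. Both are of the knockout genotype, and each library gave 1 pair of values. For KO 1M the share of cells with Ly6a, 5.07%, was the lowest listed for any gene, so Ly6a was only just listed there. Of its 66 Ly6a-positive cells 29 held 2 or more Ly6a UMIs. Above the Dcn and Lum level lay 36.4% of the Ly6a-positive cells of KO 1M and 51.0% of those of KO 2M, compared with 77.9% for Apoe 4M. With limma, 935 of 9333 genes had an adjusted p under 0.05 (10%), 472 higher (5.06%) and 463 lower (4.96%) in Ly6a-positive cells, and 2041 had an unadjusted p under 0.05. These counts leave out Ly6a and Col2a1. With 1 residual degree of freedom the calls rest on the spread pooled over genes. Without limma's trend of spread with level 4 genes were called, and with KO 4M added 63 were called; with Apoe 4M included 1112 were called. The p-values and standard errors (SE) rest mainly on the spread pooled over genes, and little on a gene's own spread between KO 1M and KO 2M. A gene's own 2 values can therefore lie further apart than its SE conveys. The 2 libraries also differ in diet time.

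Dcn passed this test with a mean difference of 4.80 ± 0.12 (SE; limma adjusted p = 3.6e-16), Lum with 3.80 ± 0.12 (limma adjusted p = 4.1e-14) and Vcam1 with 1.62 ± 0.12 (limma adjusted p = 1.6e-08). All 3 were higher in Ly6a-positive cells of each of the 4 libraries. Dcn was at 2960 against 82.4 CPM in KO 1M, at 10646 against 253 CPM in KO 2M and at 10583 against 5904 CPM in KO 4M. The Dcn level in Ly6a-positive cells of Apoe 4M was thus close to those of KO 2M and KO 4M and above that of KO 1M. In KO 4M the Ly6a-zero cells also had high Dcn, and the difference there was 0.98. With KO 4M added to the fit the limma adjusted p was 0.087 for Dcn, 0.063 for Lum and 0.061 for Vcam1, so these calls rest on KO 1M and KO 2M; without the trend Dcn and Lum stayed called and Vcam1 did not (limma adjusted p = 0.16).

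Ly6e rose with 3.28 ± 0.17 (SE; limma adjusted p = 7.9e-11) and differed by 1.46 in KO 4M. Cd34 rose with 3.77 ± 0.22 (limma adjusted p = 4.8e-10), Fbln1, a matrix fibulin, with 3.31 ± 0.28 (limma adjusted p = 1.2e-07) and Cxcl1 with 3.51 ± 0.39 (limma adjusted p = 4.9e-06). Tnfrsf11b, the decoy receptor osteoprotegerin, rose with 3.23 ± 0.22 (limma adjusted p = 5.8e-09), but in KO 4M it was at 806 CPM in Ly6a-positive and 1647 CPM in Ly6a-zero cells (difference -0.70). With KO 4M added Ly6e (limma adjusted p = 0.036) and Fbln1 (0.031) stayed called, and Cd34 (0.069), Cxcl1 (0.068) and Tnfrsf11b (0.39) did not. Without the trend Ly6e and Cd34 stayed called (limma adjusted p = 0.040 for both), and Fbln1 (0.18), Cxcl1 (0.19) and Tnfrsf11b (0.17) did not. Ly6c1 was listed at 0 in KO 1M. Its level was 373 against 3.86 CPM in KO 2M and 248 against 7.15 CPM in KO 4M. Genes named as high in Apoe 4M that did not pass included Comp (limma adjusted p = 0.92), Ildr2 (0.57), Efemp1 (0.14) and Anxa8 (0.068). Each was listed at 0 in KO 1M, and KO 2M gave differences of 0.24, 1.38, 2.73 and 3.26 for them. Prg4, also listed at 0 in KO 1M, passed (limma adjusted p = 0.049), but its KO 4M difference was -1.11.

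Acta2 fell by 1.03 on the log2 scale (SE 0.13, limma adjusted p = 2.0e-05), with 11634 CPM in Ly6a-positive and 24217.5 CPM in Ly6a-zero cells of KO 1M and 11760 and 24223 CPM in KO 2M. Sost fell by 1.26 on the log2 scale (SE 0.12, limma adjusted p = 5.1e-07), and in KO 4M it was at 127 and 140 CPM. With KO 4M added neither stayed called (limma adjusted p = 0.084 for Acta2 and 0.15 for Sost), nor without the trend (0.18 for both). Genes named as low in Apoe 4M that did not pass included Rgs5 (limma adjusted p = 0.91), Ppp2r3a (0.44) and Des (0.13). The sign of Rgs5 varied: KO 1M gave a difference of 0.90, KO 2M gave -1.06 and KO 4M gave 0.99. Of the 21 contractile genes 18 fell and 0 rose, where 4.96% of all genes fell and 5.06% rose. The median contractile share of Ly6a-positive cells was 1.86% of UMIs in KO 1M and 2.45% in KO 2M, above the 0.695% of Apoe 4M, and 0.349% in KO 4M, below it. Whether these shares differ between conditions cannot be tested with 1 library each.

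**Figure D3:**
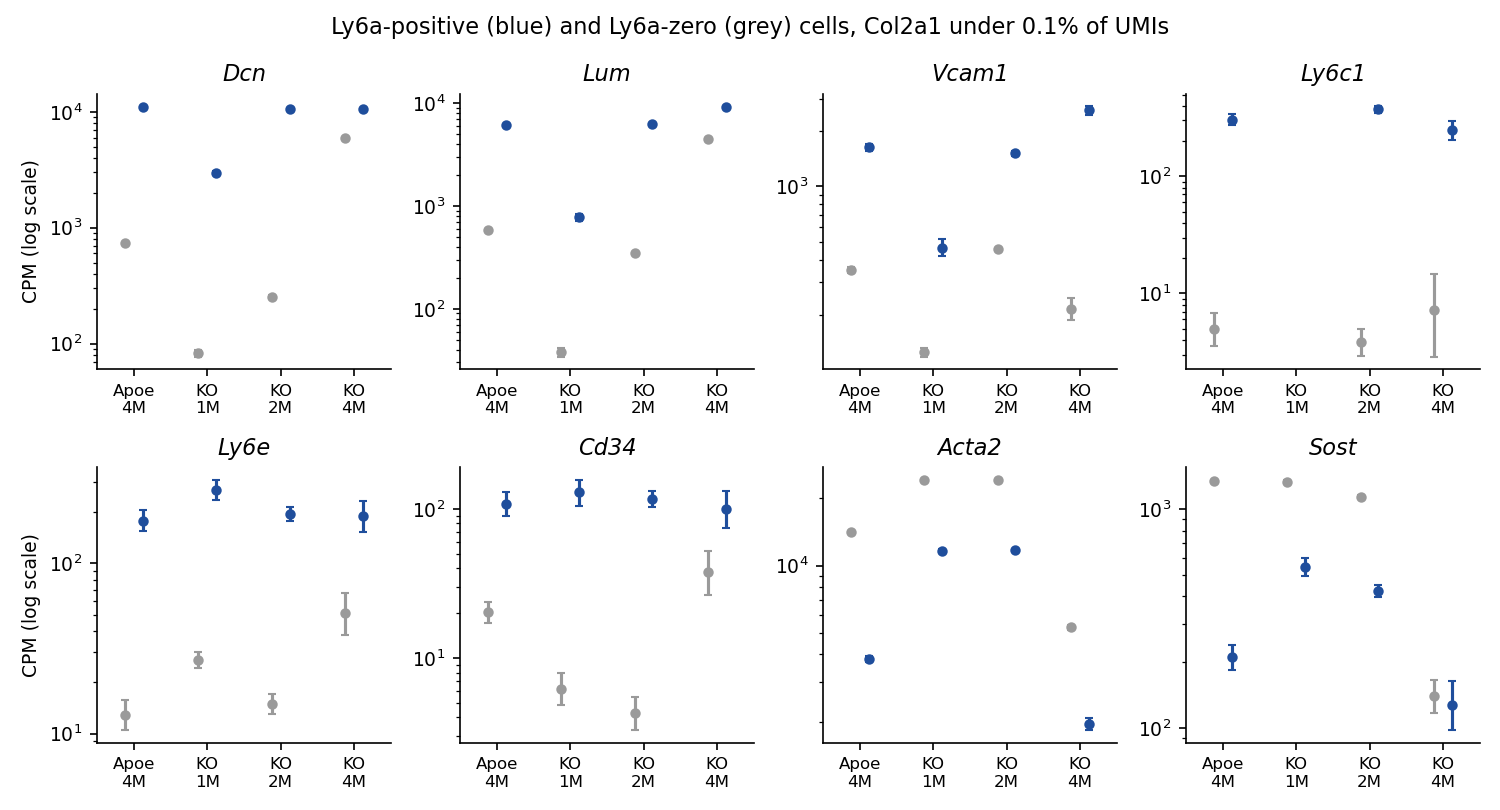
Pooled levels in CPM (log scale) of 8 genes in Ly6a-positive (blue) and Ly6a-zero cells (grey) of the 4 libraries where Ly6a is listed, with exact Poisson 95% intervals that cover counting error only. Dcn, Lum, Vcam1, Ly6e and Cd34 are higher and Acta2 is lower in Ly6a-positive cells of every library, Ly6c1 has no point in KO 1M where it is listed at 0, and Sost does not separate in KO 4M (127 and 140 CPM).

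By list, 12 of 12 collagens rose in this test and 0 fell, where 5.06% of all genes rose and 4.96% fell. Also rising, with 0 falling, were 9 of 13 matrix proteases and inhibitors, 7 of 10 MHC class I genes and 5 of 10 NF-kB and inflammatory genes. The same held for 7 of 25 interferon response genes and 12 of 12 measured fibroblast markers. With KO 4M added Col3a1 stayed called (limma adjusted p = 0.036), and Col1a1 (0.26), Col1a2 (0.24) and Col6a1 (0.22) did not. Without the trend none of these collagens was called (limma adjusted p from 0.15 to 0.22). Of 12 elastic fibre genes 7 rose and 0 fell, among them Fbln5, with differences of 2.08 (KO 1M), 1.25 (KO 2M) and 0.14 (Apoe 4M). Mfap4 rose in the KO libraries (mean difference 1.45, SE 0.26, limma adjusted p = 9.6e-04), with 2.47 for KO 1M and 0.43 for KO 2M, whereas its difference was -1.86 in Apoe 4M. With KO 4M added, where it is listed at 0, its limma adjusted p was 0.47, and without the trend 0.27. Eln did not pass (limma adjusted p = 0.084), with differences of 1.89 (KO 1M), -0.33 (KO 2M) and 3.53 (KO 4M).

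The calls of the KO libraries were then looked up in Apoe 4M, which had no part in them. Of the 472 genes that rose 460 were measured in Apoe 4M: 420 had the same sign there, 271 were also at least 0.5 higher and 6 at least 0.5 lower. These 271 genes are 58.9% of the 460 and 33.3% of the 813 genes that were higher in Apoe 4M and measured in both. Of the 463 genes that fell 457 were measured, 439 had the same sign, 360 were at least 0.5 lower and 2 at least 0.5 higher, and the 360 genes are 78.8% of the 457 and 16.1% of 2232. The contrasts share no cells. Over all genes measured in Apoe 4M 9.67% were at least 0.5 higher and 25.5% at least 0.5 lower. In the KO fit 5.06% of all genes rose and 4.96% fell. The median over all genes in Apoe 4M was -0.15, so negative signs were the more common there. The share of all genes with each sign is not given here, so no excess can be read from the same-sign counts.

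Within the Ly6a-positive cells of Apoe 4M, several genes differed between cells with few and many Ly6a UMIs. From cells with 1 Ly6a UMI to cells with 10 or more, Ly6c1 went from 134 to 565 CPM, Clec3b from 27.6 to 267 CPM and Efemp1 from 19.7 to 152 CPM. Clec3b and Efemp1 were higher in each class than in the one before. Acta2 went from 6718 to 2177 CPM and was lower in each class than in the one before. Dcn had no such order: it was already at 9811 CPM in cells with 1 Ly6a UMI and ranged from 7011 to 13374 CPM above that. Spp1, the secreted phosphoprotein osteopontin, also had none, with its highest level, 3364 CPM, at 3 to 4 Ly6a UMIs. Cells with 10 or more Ly6a UMIs had a median of 11240 UMIs, against 6465 to 7005 in the other Ly6a-positive classes, and the part of depth in this order was not tested. Nor was the part of reads shared between Ly6a and Ly6c1.

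**Figure D4:**
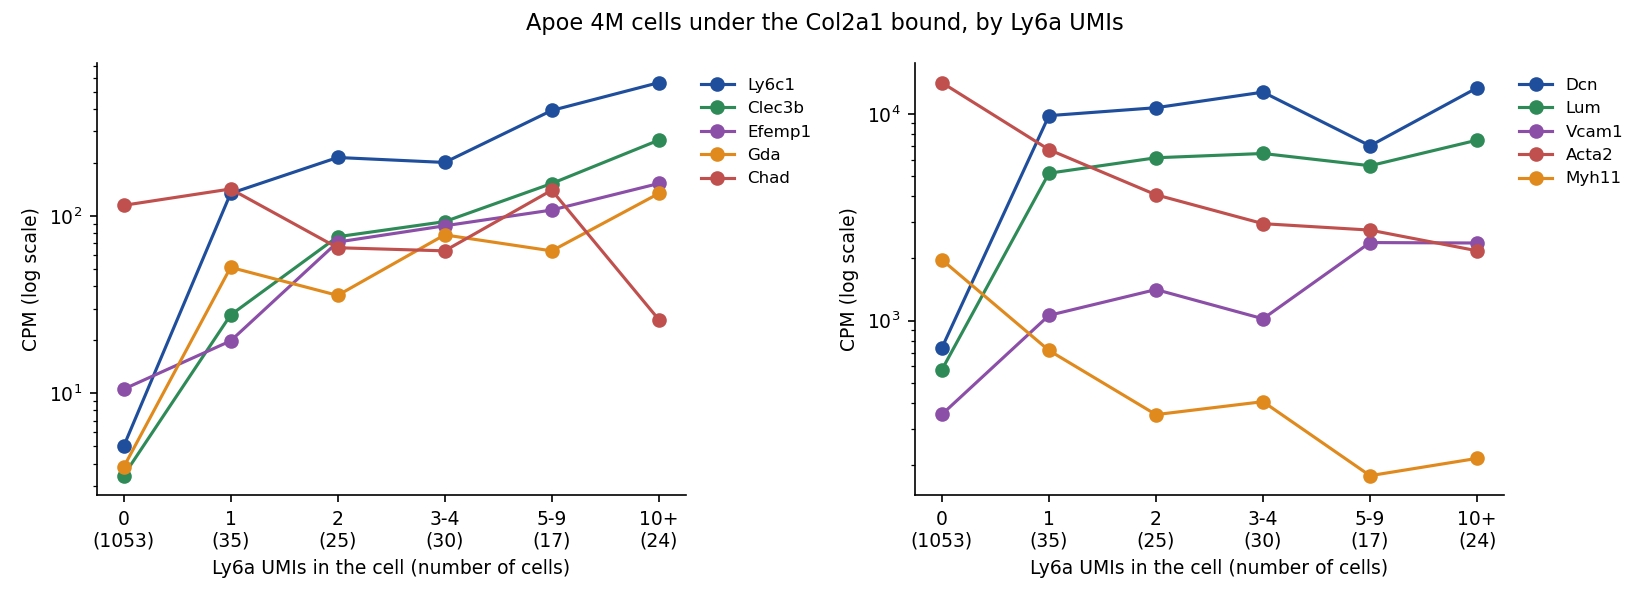
Pooled levels in CPM (log scale) of 5 genes per panel in Apoe 4M cells under the Col2a1 bound, by the number of Ly6a UMIs in the cell, with the number of cells in parentheses. In the left panel Ly6c1 reaches 565 CPM and Clec3b 267 CPM in the 24 cells with 10 or more Ly6a UMIs, and in the right panel Dcn lies between 7011 and 13374 CPM in every Ly6a-positive class while Acta2 goes down to 2177 CPM.

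To compare cells that all had high Dcn and Lum, the 179 cells above the 0.5% Dcn and Lum level were divided into the 102 with Ly6a and the 77 without. This division and the genes named from it were chosen after the values were seen. The median contractile share was 0.623% and 0.820% in these groups, closer to each other than in the whole comparison. Here 18.7% of 9003 genes were at least 0.5 higher and 20.2% at least 0.5 lower in the Ly6a-positive cells. Differences of that size were thus common. In this set 3 of 12 collagens were at least 0.5 higher and 0 lower (median 0.16). Complement had 1 of 7 higher and 0 lower (median 0.07). The NF-kB and inflammatory list had 3 of 11 higher and 2 lower (median 0.05). The interferon response list had 8 of 19 higher and 4 lower (median 0.40). C3 differed by -0.01, Sox9 by -0.35 and Tnfrsf11b by -0.60, against 2.35, 1.70 and 1.40 in the whole comparison. Fn1 and Lgals3 stayed higher, by 0.62 and 0.79. Vcam1 was at 1859 and 1335 CPM and Lum at 7922 and 6248 CPM, with matched differences of 0.30 and 0.28, while Dcn was at 14407 and 8369 CPM (difference 0.94). Since Dcn and Lum were used to choose these cells, their levels here depend in part on the cut. The Dcn difference was 1.05 with the cut at 0.25% of UMIs and 0.64 at 1%.

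Ly6c1 was at 360 CPM in the Ly6a-positive and 46.0 CPM in the Ly6a-zero cells of this set (difference 3.24). Clec3b was at 147 and 18.4 CPM (difference 3.08), Tppp3, a tubulin-binding protein, at 214 and 29.4 CPM (difference 2.81), Efemp1 at 93.1 and 27.6 CPM (difference 2.17) and Cd34 at 133 and 53.3 CPM (difference 1.37). Of the 10 genes with the highest differences 8 were listed in KO 2M, where 132 such cells had Ly6a and 47 did not: 4 of the 8 were at least 0.5 higher there too, and Rpph1 and Arl5c had the opposite sign. Of the 10 lowest 8 were listed, 6 were at least 0.5 lower there and Rgs5 had the opposite sign. The share of all genes past 0.5 in this division of KO 2M is not given here, so no excess can be read from these counts. In KO 2M Ly6c1 was at 668 and 34.0 CPM, Tppp3 at 323 and 90.0 CPM, Efemp1 at 145 and 46.2 CPM and Cd34 at 211 and 65.7 CPM. Clec3b and Gda were listed at 0 there.

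Several cartilage and bone genes had lower pooled levels in the Ly6a-positive cells of this set. Chad, which encodes the cartilage protein chondroadherin, was at 100 CPM in Ly6a-positive and 916 CPM in Ly6a-zero cells of this set (difference -3.57), and at 94.9 and 294 CPM in KO 2M. Cytl1, a small secreted protein of cartilage, was at 1354 and 4475 CPM (difference -1.35), and at 617 and 1819 CPM in KO 2M. Ibsp, bone sialoprotein, was at 160 and 566 CPM (difference -1.31). In KO 2M it was at 433 and 333 CPM, with a matched difference of -0.02. The shares of cells with a UMI were closer: 27.5% and 32.5% for Chad, 25.5% and 31.2% for Ibsp, and for Cytl1 56.9% of Ly6a-positive and 48.1% of Ly6a-zero cells, the reverse of its pooled level. The pooled differences of these genes thus lie in how many UMIs the positive cells held. Of the 9 measured chondrocyte and bone genes 0 were at least 0.5 higher and 5 lower, with a median of -0.90, beside a median of -0.03 over all genes. In the whole comparison this list went the other way, with 5 of 10 at least 0.5 higher and 3 lower and a median of 0.55, among them Comp (difference 2.00), Spp1 (1.72) and Ibsp (1.34, but -0.56 for cells with at least 2 Ly6a UMIs). With the Dcn and Lum level set at 1% of UMIs the difference was -2.78 for Chad and -0.40 for Ibsp.

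**Figure D5:**
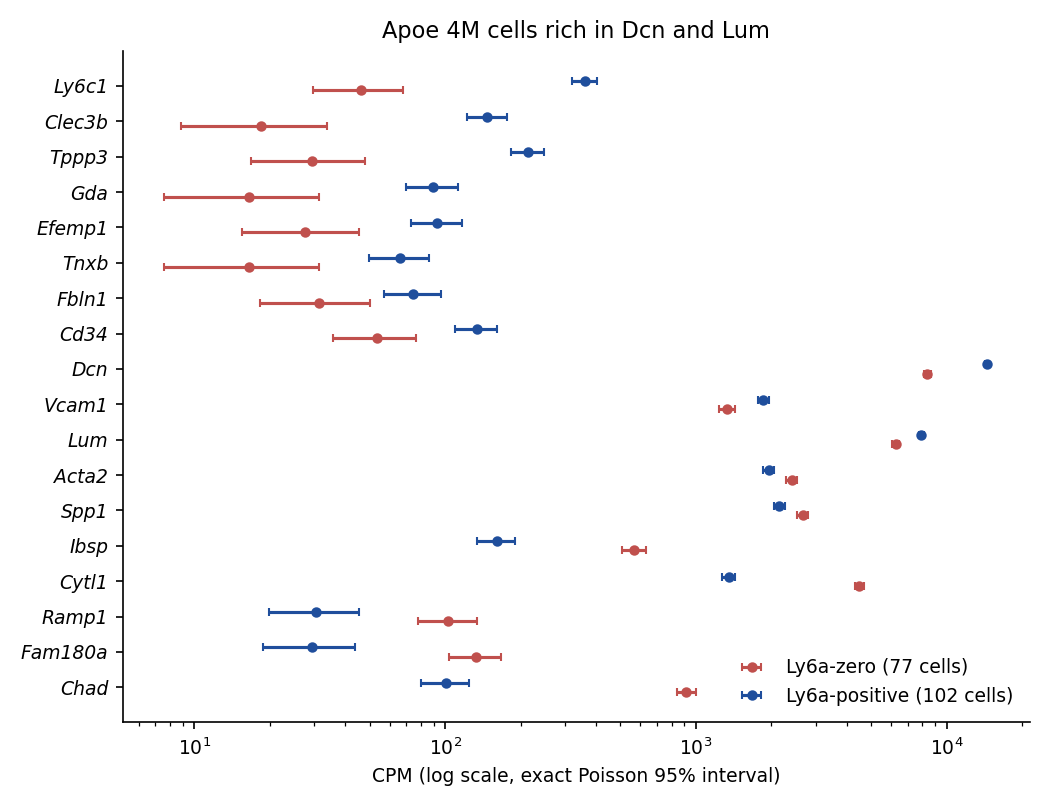
Pooled levels in CPM (log scale) of 18 genes in the 102 Ly6a-positive (blue) and 77 Ly6a-zero (red) cells of Apoe 4M in which Dcn and Lum take over 0.5% of UMIs, with exact Poisson 95% intervals that cover counting error only. Ly6c1, Clec3b and Tppp3 are high in Ly6a-positive cells, Chad, Cytl1 and Ibsp in Ly6a-zero cells, and Lum and Vcam1 lie close together. Dcn and Lum were used to choose the cells.

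The 51 Col2a1-high cells of the same library give another point of reference. They had a median contractile share of 0.290% and a median Dcn and Lum share of 0.709%. Chad was at 11634 CPM in these cells against 84.1 CPM in the 131 Ly6a-positive cells, Ibsp at 9575 against 125 CPM and Spp1 at 7810 against 1693 CPM. Vcam1 was at 251 CPM in the Col2a1-high cells against 1637 CPM, Ly6c1 at 66.7 against 306 CPM and Clec3b at 2.78 against 127 CPM. Since Col2a1 separates these groups by the rule, and the cells come from 1 library, these levels are given without a test.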

How the data were processed

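The members, gene lists and rules were chosen with earlier results of these data known. The deposited tables hold log2 values that the authors scaled per cell by TMM, per the file names. The build GRCm38 and the tools featureCounts, Subread 1.6.0, STAR and UMI-tools are those of the submitters' processing notes. UMIs were recovered as whole multiples of each cell's smallest value (100% of entries, tolerance 0.01). Symbols and coordinates are from GENCODE vM21.

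Pooled CPM were compared as log2(CPM + 1), with Ly6a-zero cells weighted over 10 depth strata (deciles of the members' UMIs), for genes seen in at least 5% of either group. A gene listed at 0 in a library entered the fit as 0. KO 1M and KO 2M were tested with limma 3.58.1 (R 4.3.3; library and membership terms, trend, Benjamini-Hochberg adjustment). On simulated data for that comparison (9335 genes) limma recovered 32% of changes of 0.5, 74% of 1.0 and 96% of 2.0 (log2), with 8 false calls. The simulation gave every gene the same spread between libraries beyond counting error. Its number of false calls therefore cannot be carried over to the calls in KO 1M and KO 2M.

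Named genes were the label's markers, the 12 highest and 12 lowest in Apoe 4M at 50 CPM or more, the 8 highest and 8 lowest called, and up to 4 members of each list by level; genes named from the Dcn and Lum division were chosen after their values were seen. Not every gene the rule names is reported here. No doublet caller was run and no cell was removed. Doublets were not assessed.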

Additional observations from a re-analysis of the deposited data

Results flagged for a closer look

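The Ly6a contrast of Mfap4, a microfibril gene, had opposite signs in the genotypes: it was -1.86 in Apoe 4M but 2.47 (KO 1M) and 0.43 (KO 2M) in the knockout libraries, and the gene was listed at 0 in KO 4M. Genotype and diet time cannot be told apart in these values. The difference between the libraries was not tested, and Apoe has 1 library with Ly6a-positive cells.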

How the results depend on the processing

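In Apoe 4M 3329 genes were at least 0.5 apart. The count was 1957 with a pseudocount of 10 CPM and 1018 at a difference of at least 1; under the other alternatives run it lay between 2933 (no Col2a1 bound) and 3815 (without the 14 members with 3% or more contractile UMIs, added after seeing the data). The 4 month table with both genotypes gave 3331. In the KO libraries limma called 935 genes, 402 with at least 2 Ly6a UMIs, 4 without the trend, 63 with KO 4M added and 272 with Apoe 4M and KO 4M added (these 2 chosen after seeing the data). All 63 were among the 935 with the same sign. The share of cells with at least 2 Ly6a UMIs was 7.77% (Apoe 4M), 2.23% (KO 1M), 6.84% (KO 2M) and 2.09% (KO 4M); thinned to 4000 UMIs the rule gave 3.32% (KO 1M) and 9.37% (KO 2M). Of the named differences in Apoe 4M, Ibsp reversed, from 1.34 to -0.56 with at least 2 Ly6a UMIs. With Apoe 4M included the count was 1112. Apart from Apoe 4M, 2 libraries of 1 genotype had enough cells, so leaving out a library, Apoe libraries alone, genotype as a factor, and the contrast against months and genotype gave no fit; a fit of genotype with Apoe 4M included was not run. The fit pairs both groups of cells within a library, and the labels give no replicate numbers that could pair libraries. At these depths, genes seen in under 5% of a library's cells have no value.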
